A study of Sus scrofa with 12 samples.

Results

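The cell cycle and DNA replication genes described here are 42 of the 29884 genes in the table of a pig ovary study, taken by gene symbol, with 24 genes that act in mitosis and 18 that act in DNA replication or in the entry into it. All 42 were found in the table. The ovaries came from commercial sows that differed in their records of litter size, 3 with small litters (SLS, 8.48 piglets per litter on average) and 3 with large litters (LLS, 16.19 piglets per litter). Every sow had given birth for the 4th time and was slaughtered 4 days later, and the left ovary of each sow was taken. Breed, age and sire were not given in the labels. Each ovary gave 1 library of total RNA and 1 library of small RNA. The SLS ovaries are named ZD2, ZD3 and ZD12, and the LLS ovaries ZD5, ZD7 and ZD8, and sets of values are given in that order. A level is in FPKM, in which the reads of a gene are divided by transcript length and library depth. The comparison asked whether these genes stood at different levels in the litter size groups, and whether the mitotic genes followed the replication genes from ovary to ovary.

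A dividing cell copies its DNA in S phase and separates the copies in mitosis, and different genes are switched on for each step. In G1, factors such as CDC6 and CDT1 load the MCM helicase onto origins, E2F transcription factors then switch on the genes for DNA synthesis, and cyclin E drives the entry into S phase. Genes for mitosis are transcribed later, in G2, through the MYB-MuvB and FOXM1-MuvB complexes, which bind a promoter element called the CHR, and through the factor NF-Y, which binds CCAAT boxes. In an ovary, granulosa cells of growing follicles, endothelial cells and the young corpus luteum are known to hold dividing cells, while mature luteal cells and resting oocytes do not divide.

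The promoters of the members were searched for the words that these factors are known to bind. RefSeq start sites on Sscrofa11.1 were used, with the longest transcript of each gene, and all 42 members had one. The window ran from 250 bases before the start to 50 bases after it, and both strands were searched. The CHR word TTTGAA was present in 13 of 24 mitotic promoters (54.2%) and in 3 of 18 replication promoters (16.7%), where 14.4% of 20636 promoters of protein-coding genes held it. CCAAT was present in 20 of 24 mitotic promoters (83.3%) and 10 of 18 replication promoters (55.6%), against 35.0% of all promoters. The pair of TTTGAA and CCAAT in the same window was found in 45.8% of mitotic, 16.7% of replication and 5.77% of all promoters. The E2F core was searched as the word TTGGCGC, as the word TTCGCGC, as the word TTCCCGC and as the word TTGCCGC, and at least 1 of them was found in 29.2% of mitotic, 27.8% of replication and 12.7% of all promoters. In the narrower window from 100 bases before to 50 after the start, TTTGAA was found in 12 mitotic and 0 replication promoters, and in 6.61% of all promoters. There CCAAT was found in 75.0% of mitotic, 27.8% of replication and 21.6% of all promoters. The E2F core words were found there in 16.7% of mitotic, 27.8% of replication and 7.13% of all promoters. A match is a description of the sequence and not a site in use, and no binding was measured in these ovaries. The start sites used in these ovaries were not measured either, so a word not found here may lie at another start.

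Promoters of 4 mitotic genes are shown because they hold a CHR and CCAAT, and those of MCM6 and RRM1 because they hold the E2F word. Each is the 150 bases before the start, 5′ to 3′ on the strand of the gene, and capitals mark the CHR (the word TTTGAA or the word TTTAAA), the CCAAT box and the E2F words, read on either strand. MKI67 lies at chr14:137296313-137296462 on the minus strand, CCNB1 at chr16:47338089-47338238 on the plus strand, CDK1 at chr14:64233842-64233991 on the plus strand, PRC1 at chr7:55869677-55869826 on the plus strand, MCM6 at chr15:15923488-15923637 on the plus strand and RRM1 at chr9:6065212-6065361 on the minus strand.
MKI67: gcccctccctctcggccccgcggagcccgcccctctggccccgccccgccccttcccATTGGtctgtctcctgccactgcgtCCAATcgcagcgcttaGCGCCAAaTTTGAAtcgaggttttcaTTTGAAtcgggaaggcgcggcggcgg
CCNB1: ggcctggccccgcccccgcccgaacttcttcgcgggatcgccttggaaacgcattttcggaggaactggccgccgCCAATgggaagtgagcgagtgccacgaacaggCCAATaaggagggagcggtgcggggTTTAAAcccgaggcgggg
CDK1: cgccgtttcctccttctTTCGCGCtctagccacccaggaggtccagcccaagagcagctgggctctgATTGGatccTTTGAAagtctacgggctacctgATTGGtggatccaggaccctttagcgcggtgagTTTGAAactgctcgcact
PRC1: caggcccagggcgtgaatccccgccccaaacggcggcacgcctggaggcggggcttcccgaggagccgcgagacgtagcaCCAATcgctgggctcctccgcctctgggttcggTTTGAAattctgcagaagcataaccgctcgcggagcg
MCM6: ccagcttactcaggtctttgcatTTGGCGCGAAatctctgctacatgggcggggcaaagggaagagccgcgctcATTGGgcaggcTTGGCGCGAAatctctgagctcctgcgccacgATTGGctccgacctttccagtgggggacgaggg
RRM1: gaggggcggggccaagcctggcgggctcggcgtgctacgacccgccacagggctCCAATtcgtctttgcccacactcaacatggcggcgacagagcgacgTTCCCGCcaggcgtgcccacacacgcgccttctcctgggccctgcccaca
In MKI67 the E2F word stands right beside a CHR, CDK1 holds an E2F word farther upstream of its CHR and CCAAT words, and MCM6 holds the same stretch TTGGCGCGAA at both of its E2F places.

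The libraries held 32272803 to 60903268 reads, with the fewest in ZD8, and the members were covered by 122 reads (CDC6 in ZD8) to 9943 reads (MKI67 in ZD2). ZD8 stood apart. Its 7 luteal markers, among them STAR, summed to 124 FPKM, where the other 5 ovaries reached 9167 to 12191 FPKM, and its 10 oocyte markers summed to 133 FPKM against 6.54 to 23.5 FPKM. Several values are also given without ZD8. In whole tissue, fewer dividing cells and less RNA per dividing cell cannot be told apart. Each ovary came from a different sow, as far as the labels say, and the p-values measure the spread between these 6 ovaries.

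No member passed the test between the litter size groups, and most had a lower mean in the LLS ovaries. With limma on log2(FPKM + 1), 0 of 42 members and 0 of 12260 genes (0%) were called at an adjusted p under 0.05 and a log2 fold change over 1 in size, and the adjusted p of every member was 0.999. On reads recovered from the FPKM values, DESeq2 also called 0 members, of 18 genes it called, and edgeR 0 members and 0 genes. At an unadjusted p under 0.05, 7 members were lower in LLS and 0 were higher, where 1.21% of all genes were lower and 0.555% were higher. These 7 were CENPA, CCNB1, CCNA2, CDC20 and MKI67 among the mitotic genes and GINS1 and UHRF1 among the replication genes. The count of members at that level was 6 by DESeq2, where 654 of 20790 genes reached it in either direction, and 2 by edgeR, where 301 of 17039 did. By limma with array weights, which give each ovary its own weight, it was 16, but 1252 of 12260 genes then reached that level, against 216 without the weights. It was 2 without ZD2, ZD3 or ZD5, 0 without ZD12, and 8 without ZD7 or ZD8, all of them lower in LLS, while between 91 (without ZD2) and 709 (without ZD8) of all genes reached it. On the log2 scale the mean was lower in LLS for 40 of 42 members, against 47.4% of all genes, and the exceptions were CCNB2 and AURKA. For 18 members every LLS ovary lay below every SLS ovary, 9 of them mitotic and 9 replication genes, where 3.17% of all genes did so. The counts of 40 and 18 and the replication median below include CDC6, which could enter the test only by being higher in SLS. For 0 members every LLS ovary lay above every SLS ovary, against 1.95% of all genes. The median log2 fold change was -0.51 over the mitotic members and -0.48 over the replication members, beside 0.02 over all genes tested. Without ZD5 the replication median was -0.31. The members were measured in the same 6 libraries and are not independent of each other, so these counts carry no p.

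**Figure D1:**
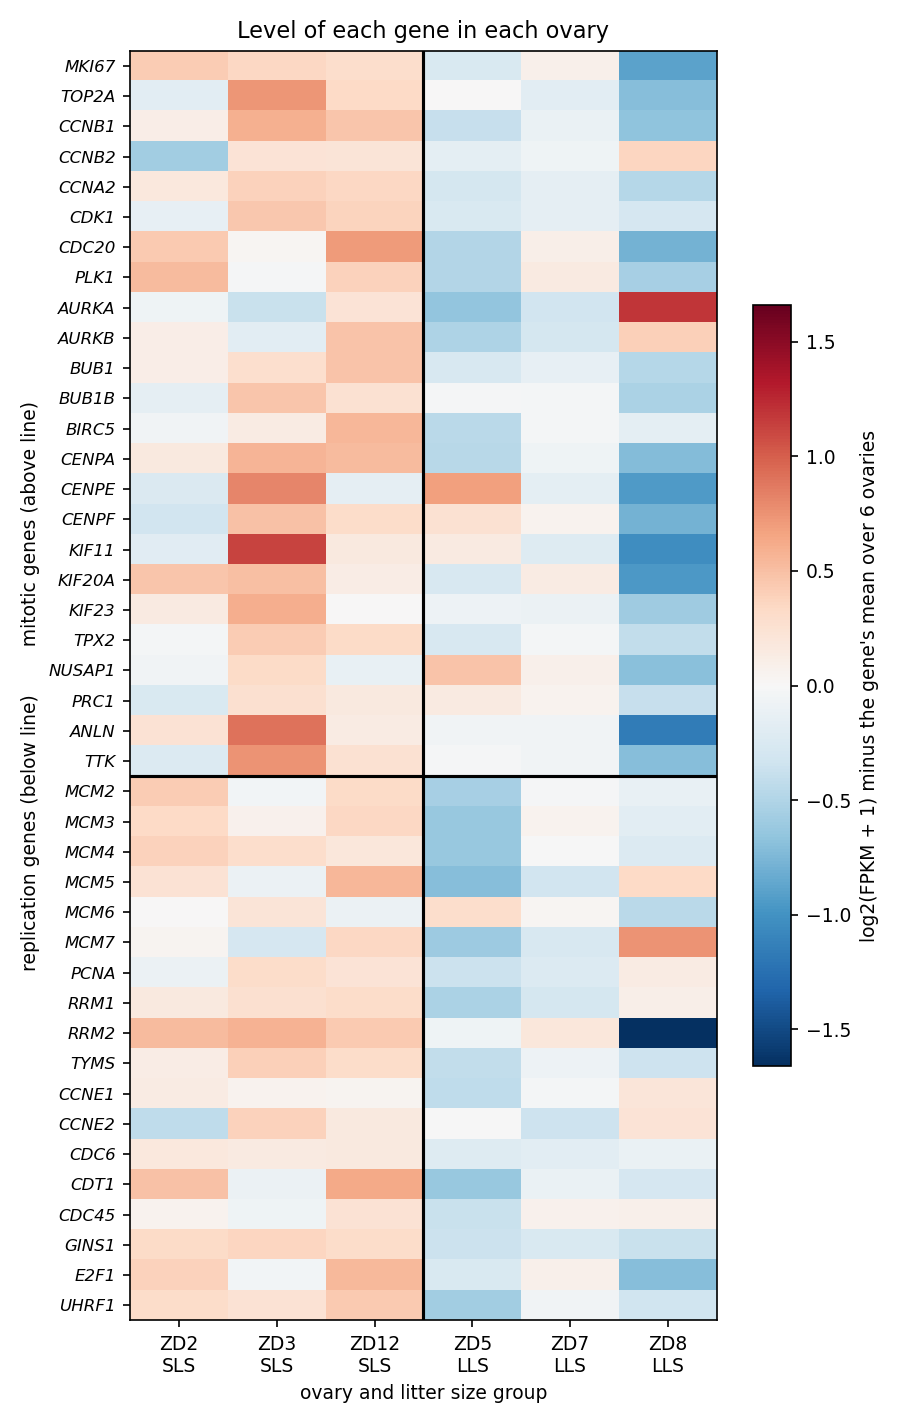
Heat map of the 42 genes (rows, 24 mitotic above and 18 replication below the horizontal line) in the 6 ovaries (columns, SLS left and LLS right of the vertical line). Colour gives log2(FPKM + 1) minus the mean of the gene over the 6 ovaries, red above and blue below that mean. ZD8 was the lowest ovary for 20 of 24 mitotic genes, beside 26.3% of all genes. ZD5 was the lowest for 13 of 18 replication genes, and the share of all genes lowest in ZD5 was not counted.

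MKI67 encodes Ki-67, the protein used to mark proliferating cells. It stood at 14.1, 13.4 and 12.9 FPKM in the SLS ovaries and at 8.50, 10.9 and 5.08 FPKM in the LLS ovaries, so the groups did not overlap and the LLS mean was 60.7% of the SLS mean. Its log2 fold change was -0.71 (SE 0.31, n = 3 ovaries per group, limma adjusted p = 0.999), and -0.44 without ZD8. TOP2A, the topoisomerase that untangles DNA before chromosomes part, stood at 13.8, 26.8 and 20.2 FPKM in SLS and at 15.9, 13.8 and 9.29 FPKM in LLS. Here ZD3 and ZD12 were highest, ZD2 and ZD7 were nearly equal, and the groups overlapped.

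The cyclins and CDK1 form the kinase that starts mitosis. CCNB1, the main mitotic cyclin, stood at 12.1, 17.2 and 15.6 FPKM in SLS and at 8.31, 10.3 and 6.62 FPKM in LLS. The groups did not overlap, and the log2 fold change was -0.77 (SE 0.28, limma adjusted p = 0.999). CCNA2, the cyclin of S phase and early mitosis, stood at 13.0, 15.0 and 14.7 FPKM in SLS and at 9.10, 10.1 and 7.91 FPKM in LLS, with a log2 fold change of -0.60 (SE 0.24, limma adjusted p = 0.999). It too kept the groups apart. CDK1 itself was at 2.42, 4.11 and 3.84 FPKM in SLS and at 2.13, 2.37 and 2.08 FPKM in LLS, again with no overlap, although ZD2 and ZD7 differed little. The level of CDK1 is divided by a RefSeq transcript of 7639 bases, the longest annotated, so its place below the cyclins depends on that length. CCNB2, a second B cyclin, went another way, with 2.69, 5.43 and 5.37 FPKM in SLS and 3.89, 4.24 and 6.03 FPKM in LLS. ZD8 was the highest ovary for CCNB2 and the lowest for CCNB1. The ratio of CCNB1 to CCNB2 was 4.50, 3.17 and 2.91 in SLS and 2.13, 2.42 and 1.10 in LLS, so that it was lower in every LLS ovary.

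Among the regulators of mitotic progress, CDC20, which activates the ligase that destroys cyclin B, stood at 20.1, 14.9 and 24.4 FPKM in SLS and at 10.1, 15.7 and 8.00 FPKM in LLS. ZD7 lay above ZD3, and the log2 fold change was -0.78 (SE 0.32, limma adjusted p = 0.999). PLK1, a kinase of mitotic entry and spindle building, was at 6.70, 4.31 and 6.01 FPKM in SLS and at 2.84, 4.95 and 2.66 FPKM in LLS, with the same overlap of ZD3 and ZD7. AURKB, the kinase of the chromosomal passenger complex, was at 3.89, 2.99 and 5.26 FPKM in SLS and at 2.17, 2.70 and 4.95 FPKM in LLS. Only ZD8 brought the AURKB values of the groups together, since ZD5 and ZD7 were below all SLS ovaries. BIRC5, or survivin, a subunit of the same complex, was at 6.34, 7.47 and 10.2 FPKM in SLS and at 4.64, 6.53 and 5.87 FPKM in LLS, and ZD7 lay just above ZD2.

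AURKA, the kinase of the centrosome and spindle poles, parted from its partner TPX2 in ZD8. It stood at 10.5, 8.32 and 13.1 FPKM in SLS and at 6.63, 8.64 and 26.6 FPKM in LLS, so that ZD8 was far above the other ovaries while ZD5 was lowest. Its partner TPX2, which activates AURKA on the spindle, stood at 14.6, 20.2 and 18.8 FPKM in SLS and at 12.1, 14.5 and 10.9 FPKM in LLS, with no overlap and ZD8 lowest. The ratio of AURKA to TPX2 was 2.44 in ZD8 and 0.411 to 0.722 in the other 5 ovaries. Without ZD8 the log2 fold change of AURKA was -0.42, and with it 0.14. AURKA shares 141 bases of exon with CSTF1 on the opposite strand, whose own level was 16.4 FPKM in ZD8 and 12.4 to 14.0 FPKM elsewhere, and whether strand was used in counting was not given in the sources used here. A role of CSTF1 reads in the AURKA value was not tested.

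The spindle checkpoint holds cells until every chromosome is attached. BUB1, a checkpoint kinase, was at 5.08, 5.84 and 6.82 FPKM in SLS and at 3.69, 4.12 and 3.06 FPKM in LLS. The groups did not overlap, with a log2 fold change of -0.58 (SE 0.27, limma adjusted p = 0.999). BUB1B, which encodes the checkpoint protein BUBR1, was at 4.21, 7.0 and 5.92 FPKM in SLS and at 4.74, 4.68 and 3.03 FPKM in LLS. TTK, the kinase that starts the checkpoint signal, was at 2.11, 5.13 and 3.34 FPKM in SLS and at 2.60, 2.50 and 1.24 FPKM in LLS. For both of these ZD2 lay among the LLS ovaries and ZD8 was lowest.

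Centromere genes gave the mitotic member with the smallest p. CENPA, the histone that marks the centromere, stood at 4.37, 6.05 and 5.89 FPKM in SLS and at 2.47, 3.57 and 1.89 FPKM in LLS, so that the LLS mean was 48.7% of the SLS mean and no ovary overlapped. Its log2 fold change was -0.84 (SE 0.29, unadjusted p = 0.0213 and limma adjusted p = 0.999). The kinetochore motor CENPE was at 1.38, 3.96 and 1.53 FPKM in SLS and at 3.53, 1.52 and 0.467 FPKM in LLS. CENPF, a large kinetochore protein, was at 3.77, 7.34 and 6.34 FPKM in SLS and at 6.07, 5.17 and 2.43 FPKM in LLS. ZD3 was the highest ovary for all 3 centromere genes and ZD8 the lowest, but CENPE and CENPF did not separate the groups, and without ZD8 their log2 fold changes were 0.12 and -0.01.

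Of the motors and bundling proteins of the spindle and midzone, 7 of 7 were lowest in ZD8, as were 20 of all 24 mitotic members and 26.3% of all genes. KIF11, the motor that pushes spindle poles apart, was at 5.69, 15.7 and 7.57 FPKM in SLS and at 7.51, 5.57 and 2.75 FPKM in LLS. KIF20A, a motor of cytokinesis, was at 12.2, 12.5 and 9.41 FPKM in SLS and at 7.01, 9.59 and 3.93 FPKM in LLS, with a log2 fold change of -0.72 (SE 0.34, limma adjusted p = 0.999), and -0.42 without ZD8. KIF20A shares 1462 bases of exon with CDC23 on the opposite strand, which stood at 5.51 to 8.04 FPKM. KIF23, a motor of the midzone, was at 7.70, 10.8 and 6.88 FPKM in SLS and at 6.40, 6.30 and 4.19 FPKM in LLS. ANLN, the actin-binding protein anillin of the contractile ring, was at 8.66, 14.3 and 7.95 FPKM in SLS and at 6.85, 6.87 and 2.64 FPKM in LLS. KIF23 and ANLN did not overlap between the groups, and the log2 fold change of ANLN was -0.85 (SE 0.39, limma adjusted p = 0.999), and -0.48 without ZD8. By contrast, NUSAP1, which binds spindle microtubules, was at 11.1, 14.7 and 10.5 FPKM in SLS and at 16.5, 12.3 and 6.76 FPKM in LLS. PRC1, the protein that bundles midzone microtubules, was at 7.54, 11.3 and 10.4 FPKM in SLS and at 10.4, 9.67 and 6.83 FPKM in LLS. Without ZD8 the log2 fold changes of NUSAP1 and PRC1 were 0.24 and 0.05, so their lower LLS means came with that 1 ovary. NUSAP1 shares 738 bases of exon with NDUFAF1 on the opposite strand, which was also lowest in ZD8, at 6.63 FPKM against 7.60 to 13.8 FPKM, and the part of this overlap was not tested.

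Of the replication genes, those that prepare and fire origins are taken first. CDC6, which loads the helicase, was at 1.14, 1.11 and 1.12 FPKM in SLS and at 0.636, 0.688 and 0.764 FPKM in LLS. It passed the filter on low values through the SLS ovaries alone, so it could enter the test only by being higher in SLS. CDT1, its partner in loading, was at 4.76, 2.84 and 5.34 FPKM in SLS and at 1.64, 2.82 and 2.40 FPKM in LLS, with a log2 fold change of -0.68 (SE 0.31, limma adjusted p = 0.999). The groups did not overlap, but ZD3 and ZD7 were almost equal. GINS1, a subunit of the active helicase, was at 7.43, 7.67 and 7.41 FPKM in SLS and at 4.30, 4.70 and 4.23 FPKM in LLS. The SD was 0.143 FPKM in SLS, where GINS1 had 554 to 639 reads, and 0.250 FPKM in LLS, where it had 193 to 404 reads, and the LLS mean was 58.8% of the SLS mean. The log2 fold change of GINS1 was -0.65 (SE 0.24, unadjusted p = 0.0276 and limma adjusted p = 0.999), and -0.63 without ZD8. CDC45, which joins MCM and GINS in that helicase, was at 3.61, 3.21 and 4.24 FPKM in SLS and at 2.44, 3.68 and 3.69 FPKM in LLS, with an overlap.

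The 6 MCM subunits form a ring around DNA that unwinds it. MCM2 was at 14.9, 10.5 and 13.8 FPKM in SLS and at 7.09, 10.7 and 9.86 FPKM in LLS. MCM3 was at 16.1, 13.3 and 16.2 FPKM in SLS and at 7.79, 13.1 and 11.0 FPKM in LLS. MCM4 was at 16.9, 15.8 and 14.6 FPKM in SLS and at 7.90, 12.7 and 10.7 FPKM in LLS. MCM3 and MCM4 kept the groups apart and ZD5 was lowest for all of MCM2, MCM3 and MCM4, with a log2 fold change of -0.57 for MCM4 (SE 0.27, limma adjusted p = 0.999). MCM5, annotated on a scaffold that has no chromosome, was at 15.3, 11.9 and 19.3 FPKM in SLS and at 7.45, 10.1 and 16.4 FPKM in LLS. MCM7 was at 25.4, 20.2 and 31.5 FPKM in SLS and at 15.9, 20.4 and 42.2 FPKM in LLS. ZD8 lay within the SLS range for MCM5 and above it for MCM7, and without ZD8 their log2 fold changes were -0.74 and -0.47. With all ovaries MCM7 had a log2 fold change of -0.07 (SE 0.39, limma adjusted p = 0.999), a direction that turned with quantile normalization (0.060). MCM7 shares 188 bases of exon with AP4M1 on the opposite strand, which was also highest in ZD8, at 12.6 FPKM against 5.53 to 10.2 FPKM, and the part of this overlap was not tested. MCM6 was at 30.3, 34.9 and 28.1 FPKM in SLS and at 36.9, 30.6 and 21.7 FPKM in LLS, so that ZD5, the lowest ovary for the other 5 subunits, was the highest for MCM6. The ratio of MCM6 to MCM2 was 5.20 in ZD5 and 2.03 to 3.33 in the other 5 ovaries. The transcript of MCM6 had a GC content of 44.0%, and those of the other 5 subunits 55.1% to 64.3%.

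PCNA, the sliding clamp of the polymerases, was the most abundant member per length in every ovary. It stood at 54.9, 72.7 and 68.8 FPKM in SLS and at 45.7, 50.1 and 64.6 FPKM in LLS. ZD5 and ZD7 were lowest, and ZD8 lay within the SLS range. The log2 fold change of PCNA was -0.29 (SE 0.28, limma adjusted p = 0.999), -0.19 without ZD5 and -0.43 without ZD8.

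TYMS, RRM1 and RRM2 serve the supply of nucleotides, and each was lower in every LLS ovary than in every SLS ovary, as were 3.17% of all genes. TYMS, which makes thymidylate, was at 16.7, 20.4 and 19.1 FPKM in SLS and at 11.2, 14.2 and 11.8 FPKM in LLS, with a log2 fold change of -0.56 (SE 0.25, limma adjusted p = 0.999). RRM1, the large subunit of ribonucleotide reductase, was at 34.3, 36.9 and 38.2 FPKM in SLS and at 21.0, 24.7 and 32.8 FPKM in LLS, with a log2 fold change of -0.49 (SE 0.27, limma adjusted p = 0.999). RRM2, the small subunit made for S phase, was at 17.3, 18.0 and 16.1 FPKM in SLS and at 11.1, 13.5 and 3.02 FPKM in LLS. The log2 fold change of RRM2 was -1.03 (SE 0.47, limma adjusted p = 0.999), the lowest of the 42, and -0.45 without ZD8. The subunits parted in ZD8, where the ratio of RRM1 to RRM2 was 10.9, against 1.83 to 2.37 in the other 5 ovaries.

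Genes of S phase entry come next. CCNE1 and CCNE2 encode the cyclins E that activate CDK2. CCNE1 was at 2.28, 2.11 and 2.09 FPKM in SLS and at 1.22, 1.91 and 2.43 FPKM in LLS. CCNE2 was at 1.12, 2.70 and 2.18 FPKM in SLS and at 1.81, 1.23 and 2.30 FPKM in LLS, and it shares 1153 bases of exon with INTS8 on the opposite strand. Both overlapped between the groups, and CCNE1 was highest in ZD8. E2F1, the transcription factor of S phase genes, was at 6.33, 4.44 and 7.17 FPKM in SLS and at 3.70, 4.97 and 2.44 FPKM in LLS, with a log2 fold change of -0.58 (SE 0.32, limma adjusted p = 0.999), and -0.38 without ZD8. UHRF1, which guides the copying of DNA methylation behind the fork, was at 11.5, 10.9 and 12.7 FPKM in SLS and at 5.76, 8.70 and 7.01 FPKM in LLS. UHRF1 kept the groups well apart, with a log2 fold change of -0.65 (SE 0.26, unadjusted p = 0.0360 and limma adjusted p = 0.999).

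**Figure D2:**
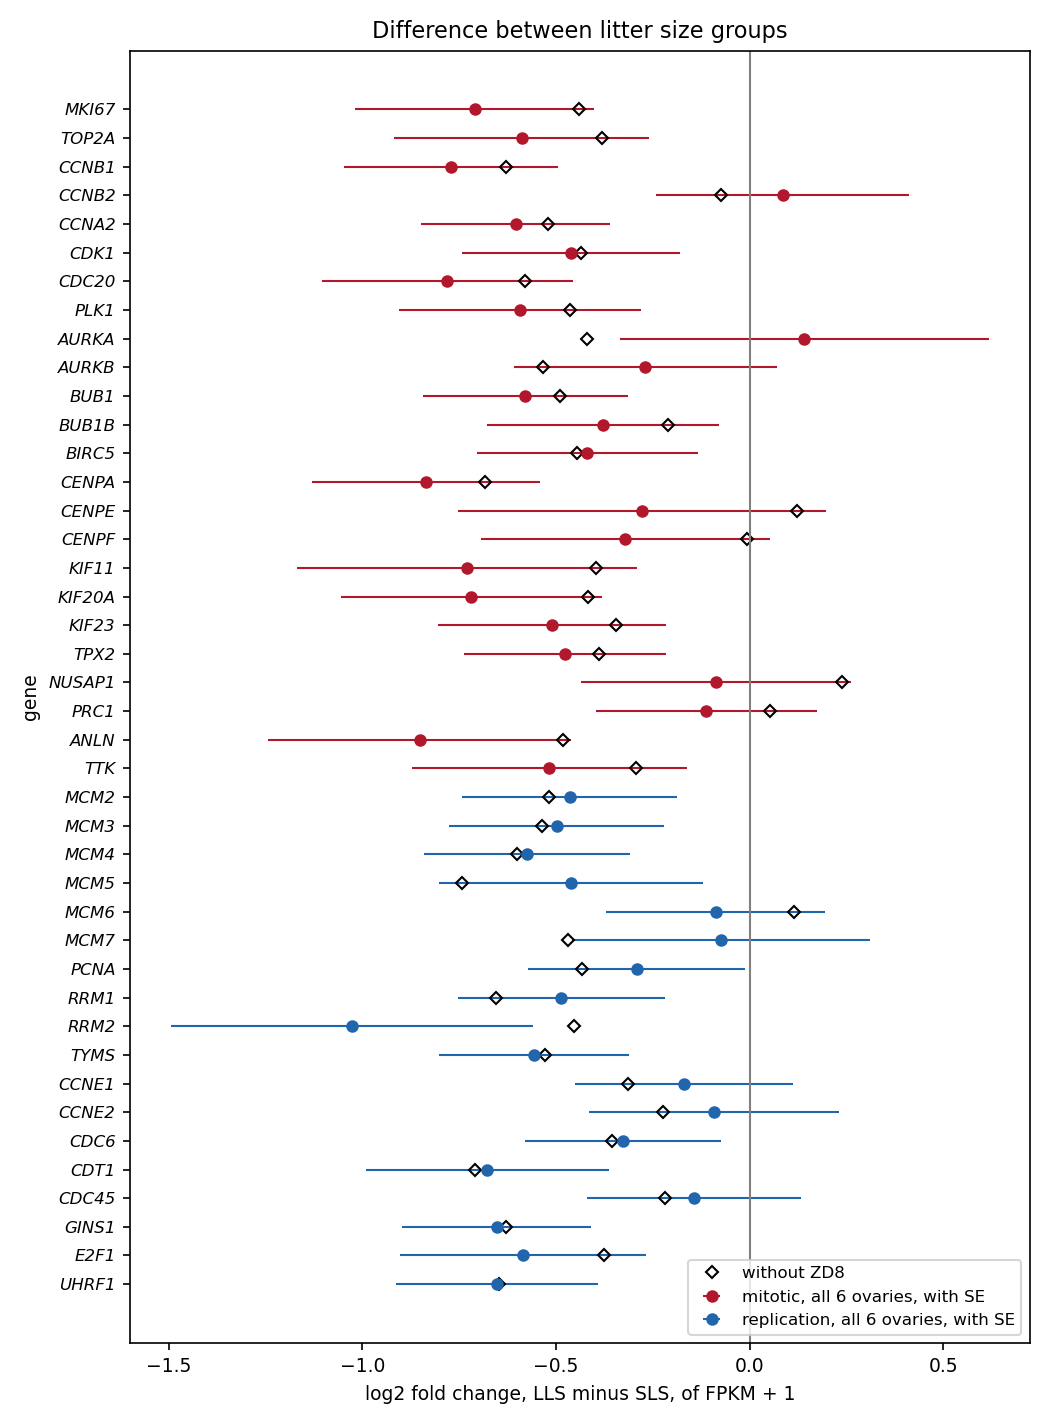
Log2 fold change (horizontal axis, LLS minus SLS on the log2(FPKM + 1) scale) of each of the 42 genes (vertical axis), as filled points with the standard error from limma as a bar, red for mitotic and blue for replication genes, and as open diamonds without ZD8. With all ovaries 40 of 42 points lie below 0, beside 47.4% of all genes, and without ZD8 38 of 42, beside 65.8%.

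Without ZD8 the members were still lower in LLS for the most part, and the genes at small p were mostly replication genes. The mean was lower in LLS for 38 of 42 members, where it was for 65.8% of all genes, a larger share than with ZD8. The LLS ovaries ZD5 and ZD7 both lay below every SLS ovary for 10 of 24 mitotic and 12 of 18 replication genes, where 11.5% of the 11985 genes then tested did so. At an unadjusted p under 0.05, 2 mitotic genes (CCNB1 and CENPA) and 6 replication genes (MCM4, MCM5, RRM1, CDT1, GINS1 and UHRF1) were lower in LLS and 0 members were higher, where 2.71% of all genes were lower and 3.20% higher. The counts of 38 and 12 and the replication median include CDC6, whose lower place was fixed by the filter. The median log2 fold change was -0.42 over the mitotic and -0.49 over the replication members, beside -0.10 over all genes. Limma called 0 members, with a smallest adjusted p of 0.558.

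Set against each other by ovary, the mitotic and replication genes followed the litter size groups alike but parted within them. A score was taken per ovary as the mean over the genes of log2(FPKM + 1), each gene centred on its mean over the 6 ovaries. The mitotic score was 0.02, 0.41 and 0.28 in SLS and -0.15, -0.06 and -0.50 in LLS. The replication score was 0.20, 0.15 and 0.30 in SLS and -0.39, -0.10 and -0.16 in LLS. Each score was lower in every LLS ovary than in every SLS ovary, by 0.47 for the mitotic and 0.43 for the replication genes on average. The scores are averages of the values given above and carry no test. The mitotic minus the replication score was -0.18, 0.26 and -0.02 in SLS and 0.24, 0.04 and -0.33 in LLS. Its group means were 0.02 ± 0.22 and -0.02 ± 0.29 (SD, n = 3 ovaries each), so the groups differed by less than the ovaries within them. The LLS minus SLS difference of these means was -0.039, and its sign was not stable, with 0.12 without ZD8, 0.081 without ZD3, -0.17 without ZD5 and -0.14 without ZD2. ZD3 and ZD5, which belong to different groups, leaned to the mitotic side, and ZD2 and ZD8 to the replication side.

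**Figure D3:**
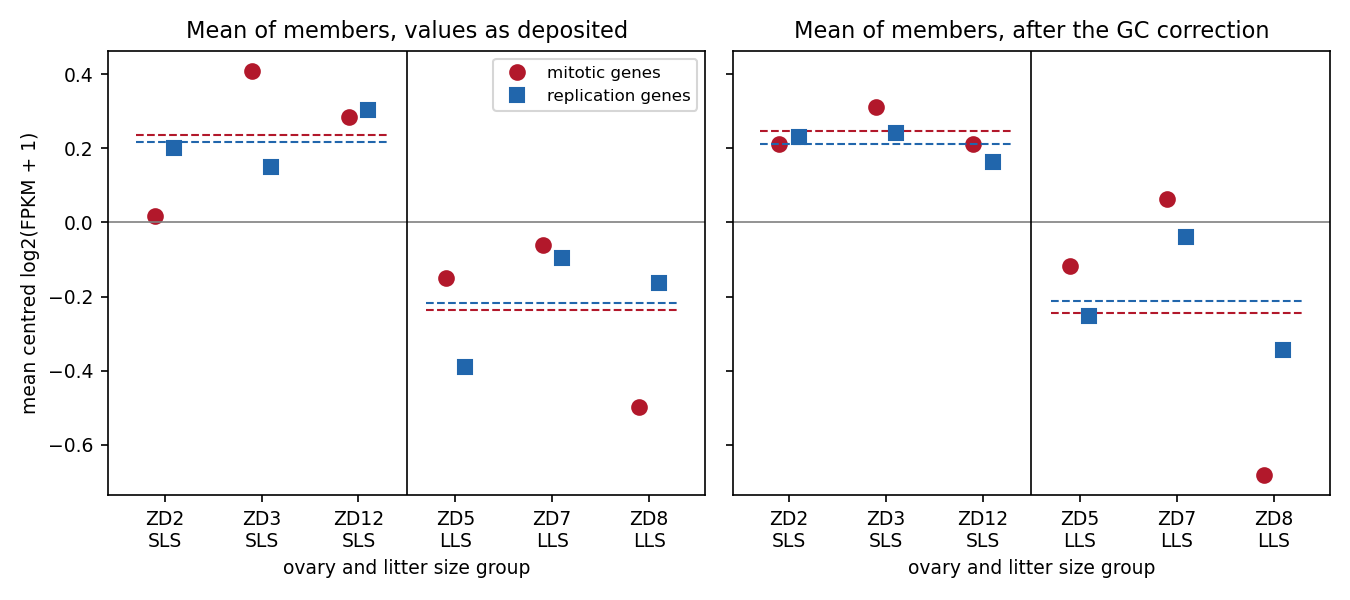
Mean centred log2(FPKM + 1) (vertical axis) of the 24 mitotic genes (red circles) and the 18 replication genes (blue squares) in each ovary (horizontal axis), with dashed lines for the group means, as deposited (left) and after the GC correction (right). All points of SLS lie above all points of LLS for the same genes in both panels, and after the correction the sets part by over 0.14 only in ZD8.

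The lean toward mitotic genes was set beside the GC content of the transcripts, with which it moved between ZD3 and ZD2 and between ZD5 and ZD7. The median GC content was 44.9% for the mitotic and 52.4% for the replication members, beside 51.0% over 11811 protein-coding genes tested. Between the SLS ovaries ZD3 and ZD2, the Spearman correlation of the log2 difference with GC content was -0.90 over the 42 members and -0.85 over all the protein-coding genes. Between the LLS ovaries ZD5 and ZD7 it was -0.82 over the members and -0.68 over all genes. Genes poor in GC were higher in ZD3 than in ZD2 and in ZD5 than in ZD7. For ZD8 minus the mean of the other ovaries the correlation was 0.25 over the members and 0.0041 over all genes. With transcript length, the same ZD8 difference had a correlation of -0.56 over the mitotic and -0.01 over the replication members. It was -0.43 over all members and 0.26 over all genes, and a role of length was not tested. These correlations run across genes that share the same libraries and are descriptions. For the difference of LLS and SLS the correlation with GC content was -0.13 over the members and -0.13 over all genes. With transcript length it was -0.07 over the members and 0.30 over all genes.

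As an alternative chosen after seeing these values, a smooth trend on GC content was taken out of each library. The mitotic minus the replication score became -0.02, 0.07 and 0.05 in SLS and 0.14, 0.10 and -0.34 in LLS, so that ZD8 was left as the ovary with the largest gap between them. The median log2 fold changes were -0.53 and -0.44 for mitotic and replication members. After the correction an unadjusted p under 0.05 was reached by 13 members, all lower in LLS, 5 mitotic and 8 replication genes. Of the protein-coding genes, 1.74% were lower at that level. For 23 members every LLS ovary lay below every SLS ovary, where 4.89% of the protein-coding genes did so. CDC6, whose lower place was fixed by the filter, was among the members counted and in the replication median. Limma still called 0 members, with a smallest adjusted p of 0.982.

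**Figure D4:**
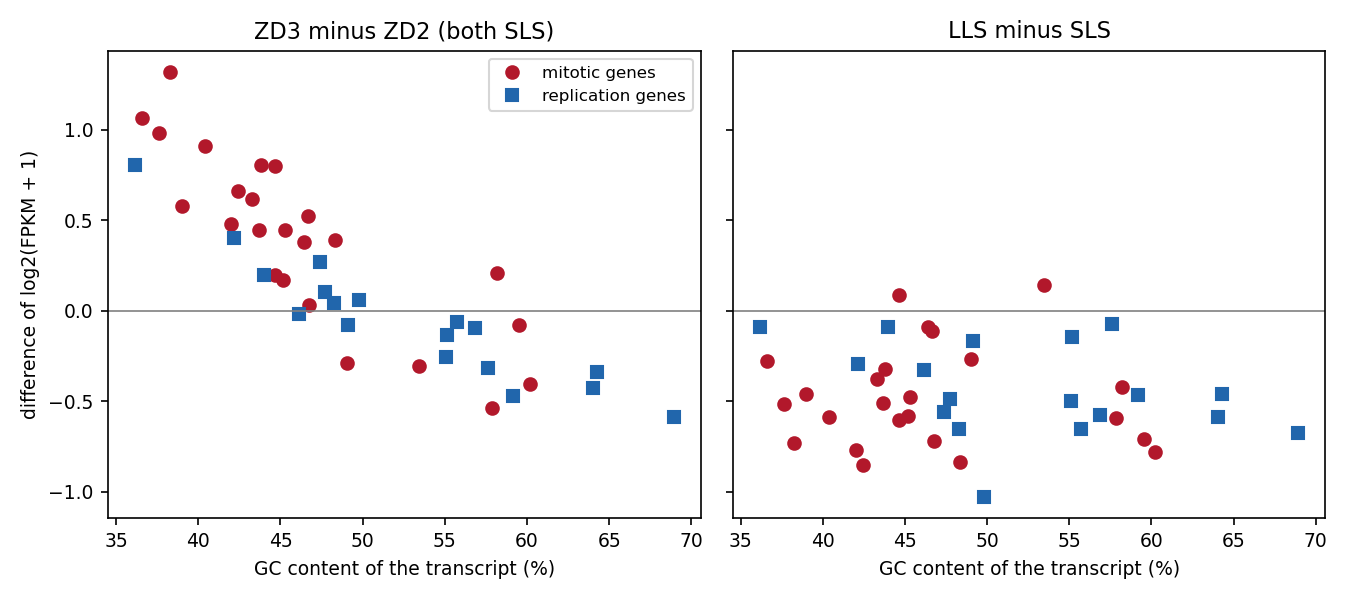
Difference of log2(FPKM + 1) (vertical axis) against the GC content of the transcript in percent (horizontal axis) for the 42 genes, red circles for mitotic and blue squares for replication genes, between the SLS ovaries ZD3 and ZD2 (left) and between the groups (right). The left panel falls with GC content (Spearman -0.90) and the right panel shows little slope (Spearman -0.13).

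ZD8 was below each of the other 5 ovaries for 20 of 24 mitotic genes, against 26.3% of all genes. For the replication genes the count was 4 of 18, near the share of all genes. It was above the other 5 for 4 members (CCNB2, AURKA, MCM7 and CCNE1), against 44.6% of all genes. The summed level of the mitotic genes was 135 FPKM in ZD8 and 164 to 255 FPKM in the other 5 ovaries, while the summed level of the replication genes was 249 FPKM in ZD8, within the range of 193 to 308 FPKM. The low luteal and high oocyte markers of ZD8 stand beside these values, and their part in them was not tested.

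Markers of other cells were read beside the group difference. The 10 granulosa markers summed to 935 to 1621 FPKM in SLS and to 372 to 768 FPKM in LLS, with no overlap. The largest parts of this sum were INHA, at 376 to 726 FPKM in SLS and 66.4 to 285 FPKM in LLS, SERPINE2, at 326 to 535 FPKM in SLS and 148 to 215 FPKM in LLS, and FST. FST went another way, at 179, 214 and 119 FPKM in SLS and at 240, 249 and 32.0 FPKM in LLS, so that ZD5 and ZD7 lay above every SLS ovary and ZD8 was lowest. Of the defining granulosa markers, CYP19A1 was listed at 0 in 5 ovaries, and FSHR was highest in ZD8 with 10.8 FPKM against 0.202 to 4.50 FPKM elsewhere. FOXL2 was at 13.8, 7.25 and 30.6 FPKM in SLS and at 6.11, 6.69 and 37.8 FPKM in LLS, with an overlap. The 7 endothelial markers summed to 268 to 340 FPKM in SLS and to 135 to 391 FPKM in LLS. The 8 lymphocyte markers were low in all ovaries, with 4.05 to 5.22 FPKM in SLS and 3.11 to 14.4 FPKM in LLS. The part of any of these cells in the lower members was not tested.

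Further genes of the cell cycle, outside the 42, were counted in the same fit. Of 35 other mitotic genes, 33 had a lower mean in LLS (47.4% of all genes) and 9 lay lower in every LLS ovary (3.17% of all genes), with a median log2 fold change of -0.33. At an unadjusted p under 0.05, 4 of them were lower (1.21% of all genes) and 0 were higher. Without ZD8 the mean was lower for 34 (65.8% of all genes), 16 lay lower in every LLS ovary (11.5% of all genes) and the median was -0.37. SPC24, a kinetochore subunit, was at 9.95, 9.19 and 11.3 FPKM in SLS and at 4.68, 6.94 and 5.62 FPKM in LLS, with a log2 fold change of -0.74 (SE 0.26, limma adjusted p = 0.999). MYBL2, the MYB factor that switches on mitotic genes, was at 19.3, 14.0 and 20.4 FPKM in SLS and at 8.88, 14.4 and 7.45 FPKM in LLS, with a log2 fold change of -0.78 (SE 0.31, limma adjusted p = 0.999). SPC24 kept the groups apart and MYBL2 did not.

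Of 39 other replication genes, 38 were in the table and tested, 29 had a lower mean in LLS and 12 lay lower in every LLS ovary, against the same shares of all genes, with a median log2 fold change of -0.15. At an unadjusted p under 0.05, 5 were lower (1.21% of all genes) and 0 were higher (0.555% of all genes). Without ZD8, with 37 tested, the mean was lower for 34 (65.8% of all genes), 20 lay lower in every LLS ovary (11.5% of all genes) and the median was -0.30, beside -0.10 over all genes. TK1, the thymidine kinase of S phase, was at 25.0, 17.4 and 21.5 FPKM in SLS and at 7.58, 16.0 and 5.40 FPKM in LLS, with a log2 fold change of -1.18 (SE 0.38, limma adjusted p = 0.999). DUT, which keeps uracil out of DNA, was at 31.1, 33.6 and 39.0 FPKM in SLS and at 19.3, 23.1 and 17.2 FPKM in LLS, with a log2 fold change of -0.77 (SE 0.25, limma adjusted p = 0.999). Both kept the groups apart.

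A list of 22 other genes of G1 and its control held D cyclins, their kinases, CDK inhibitors, pocket proteins such as RB1, E2F and MuvB factors, FZR1 and MYC. Of these, 12 had a lower mean in LLS, near the share of all genes (47.4%), with a median log2 fold change of -0.03 and 0 at an unadjusted p under 0.05 in either direction. Without ZD8 the mean was lower for 14, near the share of all genes (65.8%), and 4 lay lower in every LLS ovary (11.5% of all genes). The median was then -0.16, and 1 was lower at an unadjusted p under 0.05, where 2.71% of all genes were. The difference between this list and the members was not tested. CDK2, the partner of cyclin E, was at 10.6, 10.4 and 11.8 FPKM in SLS and at 7.06, 7.80 and 8.94 FPKM in LLS, with a log2 fold change of -0.42 (SE 0.25, limma adjusted p = 0.999). CDKN2C, an inhibitor of CDK4 and CDK6, was at 10.9, 11.7 and 11.3 FPKM in SLS and at 10.1, 7.78 and 5.71 FPKM in LLS, with a log2 fold change of -0.51 (SE 0.28, limma adjusted p = 0.999), and -0.32 without ZD8. CDK2 and CDKN2C were the 2 of these genes whose groups did not overlap (3.17% of all genes, lower in LLS). For the other named genes of G1, ZD8 was the lowest or the highest ovary. CDKN1A, which encodes the inhibitor p21, was at 49.5 to 81.3 FPKM in the other 5 ovaries and at 22.2 FPKM in ZD8 (log2 fold change -0.49, SE 0.46). CDKN1C, which encodes p57, was at 1.88 to 5.49 FPKM in the other 5 and at 17.2 FPKM in ZD8 (log2 fold change 0.17, SE 0.66). CDKN1B, which encodes p27, was at 11.7 to 32.2 FPKM in the other 5 and at 49.6 FPKM in ZD8 (log2 fold change 0.39, SE 0.46). CCND1 was at 22.3 to 32.7 FPKM in the other 5 and at 8.94 FPKM in ZD8, and CCND2 at 34.1 to 54.2 FPKM and at 99.2 FPKM. Their log2 fold changes were -0.48 (SE 0.44) and 0.10 (SE 0.42). Without ZD8 the log2 fold changes were 0.015 for CDKN1A, -0.68 for CDKN1C, 0.019 for CDKN1B, 0.016 for CCND1 and -0.36 for CCND2. With all ovaries limma's adjusted p was 0.999 for each of these 5 genes.

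By the annotation used, the small RNA libraries gave 1 miRNA that lies inside a gene of the mitotic program. The miRNAs looked for inside the member MCM7 were not among the rows used. MIR15B is annotated at chr13:100083172-100083269 within SMC4, the condensin gene at chr13:100078149-100120907, both on the plus strand of Sscrofa11.1. The columns of the small RNA table were matched to their libraries by group only, so values are given without ovary names. The level of miR-15b, in reads scaled to the library total (RPM), was 91.2, 94.0 and 122 RPM in SLS and 48.1, 73.9 and 89.5 RPM in LLS, each from lowest to highest. The lowest SLS value lay just above the highest LLS value, and the share of all miRNAs whose groups did not overlap was not counted. The log2 fold change was -0.56 (SE 0.43, limma adjusted p = 0.997 over 353 miRNAs), and -0.31 without 1 of the LLS libraries. SMC4 itself was at 2.81, 9.53 and 5.75 FPKM in SLS and at 5.38, 3.95 and 2.76 FPKM in LLS, with an overlap. The level of miR-16, of the same seed family, ran from 805 to 989 RPM in SLS and from 650 to 1251 RPM in LLS, with a log2 fold change of -0.13 (SE 0.38, limma adjusted p = 0.997). Of the 353 miRNAs, limma and edgeR called 0, and by limma 0 were under an unadjusted p of 0.05 in either direction.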

How the data were processed

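Total RNA depleted of ribosomal RNA and small RNA were sequenced from 3 SLS and 3 LLS ovaries. HISAT2 and Sscrofa11.1 are named in the submitters' processing notes, and the authors deposited FPKM values per gene from trimmed reads, but the program that counted reads was not given in the sources used here. For miRNAs the deposited values are reads scaled to the library total (RPM). All 12 columns of values were used. The 42 members and every list were chosen with earlier results of these data known.

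Whole reads were recovered from the FPKM values by the length of the longest RefSeq transcript, and 23477 of 23564 expressed genes gave them (99.6%, within 0.001 of a whole read). In the RPM table every one of the 457 values of each library gave a whole read. The main test was limma 3.58.1 in R 4.3.3 with a trended variance on log2(value + 1), LLS minus SLS, for features of at least 1 FPKM or RPM in at least 3 libraries (12260 genes, 353 miRNAs), with Benjamini-Hochberg adjustment over all of them. A fold change on this scale understates the change of low genes. A call needed an adjusted p below 0.05 together with a log2 fold change beyond 1 in either direction. DESeq2 1.42.0 and edgeR 4.0.16 on recovered reads, array weights, other pseudocounts, filters and scalings, and leaving out each ovary were alternatives. The fits were tested on simulated data.

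Every member is given by its level, and statistics are given for the 8 mitotic and 8 replication members with the smallest p and for MKI67, PCNA and MCM7. Of the other cell cycle genes, statistics are given for the 2 with the smallest p in each list and for CDKN1A, CDKN1B, CDKN1C, CCND1 and CCND2. Lists are described by counts and medians. The GC correction subtracted a lowess trend of each library on transcript GC content. Promoters and GC content were read from the RefSeq assembly Sscrofa11.1 with Python 3.11.15 and pysam 0.24.0.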

Additional observations from a re-analysis of the deposited data

How the results depend on the processing

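Of 453 values of single genes and miRNAs under other settings, 439 kept their direction and their side of the thresholds, 14 turned in direction and 0 passed the thresholds. Members called stayed at 0 under each setting run. Genes called numbered 13 with array weights, 18 by DESeq2 and 0 to 20 when 1 ovary was left out, with 20 reached without ZD8. Members at an unadjusted p under 0.05 numbered 16 with array weights (where 1252 of 12260 genes reached that level, against 216 without them), 13 with the GC correction (chosen after seeing the data), 2 by edgeR and 0 to 8 when 1 ovary was left out. The median log2 fold change of the replication members ran from -0.57 to -0.31 when 1 ovary was left out. The log2 fold change of MCM7 was 0.060 with quantile normalization and ran from -0.47 to 0.21 over the ovaries left out. With array weights CDKN1C was at -0.69, CCND1 at 0.032 and CCND2 at -0.39. Over the ovaries left out, CDKN1A ran from -0.84 to 0.015, CDKN1B from -0.051 to 0.64, CDKN1C from -0.68 to 0.65, CCND1 from -0.87 to 0.016, CCND2 from -0.36 to 0.40 and miR-16 from -0.42 to 0.053. The cause was not tested in any of these cases. In the short promoter window the mitotic promoters with an E2F word were 4 in place of 7. Other cell cycle genes at an unadjusted p under 0.05 numbered 2 to 9 when 1 ovary was left out. The lowest coverage of a member was 122 reads. No paired analysis was made, because each ovary came from a different sow, as far as the labels say.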
